A study of Homo sapiens with 24 samples.

Results

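SUSD2, STC1, POM121L9P, MFAP4, PPP1R17, SLC7A7, FNDC5, LRRC10B and C11orf96 are 9 genes whose transcripts climbed after a short hairpin RNA against OTX2 was induced in D425 medulloblastoma cells. They were picked from these same arrays, by name, for a rise within 16 to 24 h or for a rise that was among the strongest later. Their changes from 0 h therefore describe the choice and are given without a test. The 9 genes carry 22 of the 54675 probe sets on the array, of which 18 passed a filter on low signal, and all 9 are among the 13903 genes tested. Most were picked as secreted or surface proteins. By what is known of them that holds for SUSD2, STC1, MFAP4, SLC7A7 and FNDC5, while PPP1R17 is an intracellular protein, POM121L9P is a transcribed pseudogene, and LRRC10B and C11orf96 have little described function. Timing also parted them: SLC7A7, FNDC5, LRRC10B and C11orf96 first reached 50% of their largest log2 change at 48 h in all 3 courses, after the window from 16 to 24 h.

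D425 is an established human medulloblastoma cell line. Cells of 18 arrays carried a doxycycline-inducible hairpin against OTX2, labelled shOTX2, and were followed in 3 independent time courses. A single control course gave 6 arrays, and the labels do not say what the control cells carry. In every course cells were plated 24 h ahead of doxycycline and sampled at 0, 8, 16, 24, 48 and 96 h after it, with 1 Affymetrix U133 Plus 2.0 array per time. So the control has 1 array per time, its spread was not measured, and all values come from 1 cell line and, as labelled, 1 target. Values are MAS5 signals, a linear intensity scaled so that each array has the same trimmed mean. The median signal of an array lay between 16.3 and 20.6. Log2 changes below are differences of log2(signal + 16), a scale that understates the change of dim genes. The number of arrays limits the precision.

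The targeted transcript itself moved little. OTX2 signals of the brighter probe set were 3842 to 4398 in shOTX2 arrays at 96 h, against 4417 to 4839 in the 0 h arrays (log2 change -0.15, limma adjusted p = 0.172). After induction 15 of 15 arrays were dimmer than their course at 0 h on that probe set and 9 of 15 on the other. The name shOTX2 therefore stands here for the arrays so labelled. Most markers of this tumour type were present: 5 or 6 of 7 group 3 medulloblastoma genes, OTX2 among them, exceeded the median of every array. MYC was at 5023 and IMPG2 at 2476 in shOTX2 cells at 0 h. NPR3 never exceeded 12.9, and GABRA5 had a median of 9.0 over the 24 arrays. RNA integrity or labelling, read as the ratio of actin signal at the 3' end to that at the 5' end, was 1.31 to 1.51 in course 1, 1.82 to 2.36 in course 2 and 1.87 to 2.02 in course 3, against 1.30 to 1.55 in the control course, so values are shown course by course. Its part in the results was not tested.

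OTX2 is a homeobox transcription factor of the embryonic brain and eye, and medulloblastomas of the more aggressive groups often express it strongly. Genes that rise when it is silenced can be direct or indirect responders, which expression arrays do not separate. Of the 9 genes, 5 encode proteins that a cell shows or releases to its surroundings, among them a glycoprotein hormone, a matrix protein, a transporter subunit and the precursor of a circulating peptide.

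SUSD2 (chromosome 22) encodes a membrane protein with a sushi domain and is used as a surface marker of mesenchymal stem cells in the endometrium. The SUSD2 signal at 0, 8, 16, 24, 48 and 96 h was 347, 508, 1754, 2688, 4305 and 2664 in course 1. Course 2 gave 128, 137, 876, 1485, 3234 and 1509 for SUSD2. Course 3 gave 427, 532, 888, 1494, 3422 and 1743. Every course was higher at 16 h than at 8 h, was highest at 48 h and was lower again at 96 h. The control course gave 717, 747, 1110.2, 1158, 879 and 670.0. The control array thus started above all 3 shOTX2 arrays and itself was higher at 16 and 24 h, at 1110 and 1158, than at any other time. At 24 h the shOTX2 mean was 1889 ± 692 (SD, n = 3), 1.63 times the control array, and at 48 h it was 3653 ± 572, 4.16 times the control array. Relative to 0 h the log2 changes were 1.98, 2.68, 3.67 and 2.76 at 16, 24, 48 and 96 h.

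STC1 (chromosome 8) encodes stanniocalcin-1, a secreted glycoprotein hormone first known from calcium regulation in fish. At the same 6 times the STC1 signal was 204, 264, 794, 1644, 2853 and 2942 in course 1. Course 2 gave 244, 224, 1224, 2018, 3939.8 and 2974 for STC1. Course 3 gave 456, 475.5, 911, 1566, 3876 and 2958. From 16 h on, the 3 courses ran above the control array. Control signals of STC1 were 349, 412, 421.5, 459, 628 and 490.1. The 96 h signals of the 3 courses were close to each other, with a mean of 2958 ± 16.3 (SD, n = 3) against 490 in the control array, although the 0 h signals differed more, with a mean of 301.5 ± 135. STC1 changed by 1.70, 2.54, 3.56 and 3.31 on the log2 scale at 16, 24, 48 and 96 h.

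POM121L9P (chromosome 22) is a transcribed pseudogene related to POM121, a nucleoporin of the nuclear pore membrane. POM121L9P read 46.9, 93.0, 354.5, 610.5, 1021 and 700.5 in course 1. Course 2 gave 133, 99.7, 648, 846, 1229 and 815 for POM121L9P. Course 3 gave 333, 313.5, 573, 927, 1302 and 900.5. Course 3 began at 333, above the control array, and had the smallest log2 change of the 3 courses. Its control course read 256, 313, 238, 259.7, 362 and 371. At 16, 24, 48 and 96 h the log2 changes were 1.82, 2.43, 3.01 and 2.46. Of the 7 probe sets annotated to POM121L9P, 5 are also annotated to other genes of the family, so signal from near-identical copies is not told apart there; the probe set shown is annotated to POM121L9P alone.

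MFAP4 (chromosome 17) encodes a matrix glycoprotein that associates with elastic fibres. MFAP4, on its 1 probe set, read 21.6, 4.9, 66.9, 254, 1071 and 1106 in course 1. Course 2 gave 1.7, 2.6, 52.3, 93.2, 915 and 552 for MFAP4. Course 3 gave 19.5, 26.7, 57.3, 100.5, 874 and 549. At 0 and 8 h these signals were near or below the array median, so their ratios to later times carry little meaning. Between 24 and 48 h all 3 courses climbed steeply, to a mean of 953 ± 104 (SD, n = 3) at 48 h, against 149 ± 90.8 at 24 h. MFAP4 control signals were 70.4, 56.3, 138, 148, 84.4 and 77.5. Like SUSD2, MFAP4 was brighter in the control array at 16 and 24 h, at 138 and 148, than at its other times, and only from 48 h were all 3 shOTX2 arrays above it. The log2 change was 1.38, 2.39, 5.07 and 4.63 at 16, 24, 48 and 96 h.

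PPP1R17 (chromosome 7), also called G-substrate, is a target of cGMP-dependent protein kinase that inhibits protein phosphatases and is known from cerebellar Purkinje cells. PPP1R17 signals were 49.0, 49.6, 168, 616, 3085 and 4711 in course 1. Course 2 gave 54.7, 25.1, 172, 466, 3339 and 5156 for PPP1R17. Course 3 gave 133, 115, 215, 419.9, 3937 and 4536.5. The 3 courses lay below the control array up to 16 h and above it from 24 h. Control cells gave 254, 206, 365, 345, 295 and 441 for PPP1R17. At 96 h PPP1R17 averaged 4801 ± 319 in shOTX2 cells (SD, n = 3), 10.9 times the control array. PPP1R17 changed by 1.18, 2.53, 5.29 and 5.77 on the log2 scale at 16, 24, 48 and 96 h, ranking 1 among all genes at 48 h and 4 at 96 h.

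**Figure D1:**
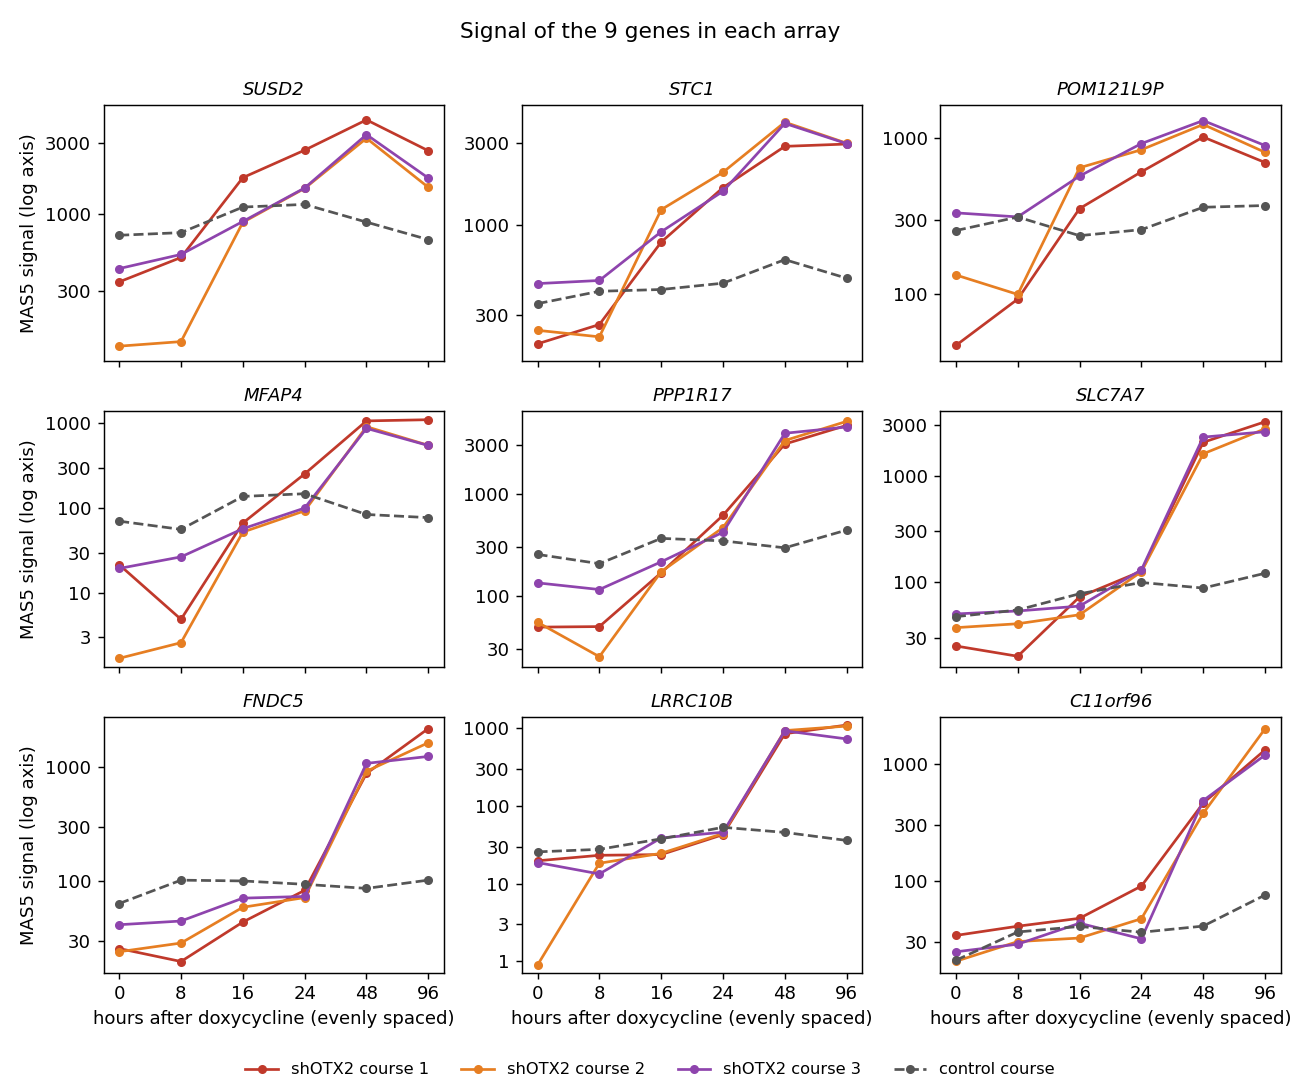
MAS5 signal (log axis, a separate range for each gene) of the 9 genes in each array against hours after doxycycline, with the sampling times evenly spaced; coloured lines are the 3 shOTX2 courses and the dashed grey line is the control course. The shOTX2 lines of SUSD2, STC1, POM121L9P, MFAP4 and PPP1R17 bend upward by 16 h, those of SLC7A7, FNDC5, LRRC10B and C11orf96 mainly after 24 h. From 48 h all shOTX2 arrays lie above the control array for all 9 genes.

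SLC7A7 (chromosome 14) encodes y+LAT1, the light subunit of a cationic amino acid exchanger of the plasma membrane, which pairs with the heavy subunit SLC3A2. The SLC7A7 signal was 25.0, 20, 72.5, 127, 2075 and 3238 in course 1. Course 2 gave 37.2, 40.5, 49.2, 125, 1616 and 2781 for SLC7A7. Course 3 gave 50.1, 53.4, 59.4, 130.3, 2322 and 2608. At 24 h the 3 courses lay between 125 and 130.3, at a mean of 127 ± 2.64 (SD, n = 3), and at 48 h the mean was 2004 ± 358. SLC7A7 in control cells read 47.2, 54.6, 77.6, 99.1, 87.8 and 121. At 96 h SLC7A7 averaged 2876 ± 326 in shOTX2 cells (SD, n = 3), against 121 in the control array, whose highest value that was. On the log2 scale SLC7A7 changed by 0.53, 1.45, 5.25 and 5.78 at 16, 24, 48 and 96 h.

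FNDC5 (chromosome 1) encodes a membrane protein with a fibronectin type III domain, from which the peptide irisin is released. FNDC5 read 25.6, 19.7, 43.7, 82.9, 878 and 2173 in course 1. Course 2 gave 24.0, 28.6, 58.9, 71.6, 917 and 1632.5 for FNDC5. Course 3 gave 41.4, 44.6, 70.8, 73.3, 1076 and 1238. Up to 24 h these signals stayed under the control array, and at 48 h they averaged 957 ± 105 (SD, n = 3). The FNDC5 control values were 63.5, 102, 100.2, 93.6, 86.2 and 102. Course 1 went on to 2173 at 96 h and course 3 to 1238, so the courses spread apart at the last time. Log2 changes of FNDC5 were 0.67, 1.01, 4.41 and 5.18 at 16, 24, 48 and 96 h.

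LRRC10B (chromosome 11) encodes a protein with leucine-rich repeats whose function is little described. LRRC10B signals were 19.8, 23.3, 23.8, 43.0, 856 and 1108.5 in course 1. Course 2 gave 0.9, 18.4, 24.7, 44.4, 940.4 and 1074 for LRRC10B. Course 3 gave 18.8, 13.4, 39.0, 46.2, 933 and 734. Up to 24 h no shOTX2 array of LRRC10B exceeded 46.2, and at 48 h none was under 856. For LRRC10B the control course gave 25.8, 27.8, 38.0, 53.4, 45.9 and 36.2. The 48 h mean was 910.0 ± 46.8 (SD, n = 3), 19.8 times the control array, and the 3 courses differed less there than at 96 h, at 972 ± 207. Its log2 changes were 0.69, 1.13, 5.07 and 5.14 at 16, 24, 48 and 96 h.

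C11orf96 is an open reading frame on chromosome 11 without an established function. For C11orf96 the signal was 34.0, 40.8, 47.7, 90.2, 465 and 1332 in course 1. Course 2 gave 20.4, 30.1, 32.3, 47.3, 380.3 and 2022 for C11orf96. Course 3 gave 24.6, 28.6, 43.3, 31.8, 489 and 1203. Of the 9 genes it climbed latest, since the signal at 96 h was 2.46 to 5.32 times that at 48 h in the same course, more than for any other of them in each course. C11orf96 in the control course read 20.8, 36.4, 40.6, 36.2, 40.9 and 75.6. Its last control value, 75.6, was the highest of the 6 and well under the lowest shOTX2 value at that time. C11orf96 changed by 0.43, 0.71, 3.45 and 5.16 on the log2 scale at 16, 24, 48 and 96 h.

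Ranks among the 13903 genes show which window chose each gene. At 24 h SUSD2, STC1, PPP1R17, POM121L9P and MFAP4 held ranks 2 to 6 by log2 rise, and the next gene, TNNC1, changed by 2.35 where MFAP4 had 2.39. At 96 h SLC7A7, PPP1R17, FNDC5, C11orf96, LRRC10B and MFAP4 ranked 3, 4, 9, 10, 11 and 18. STMN2, just after LRRC10B, changed by 4.99 at 96 h, and MFNG, just after MFAP4, by 4.58. SUSD2, STC1 and POM121L9P had slipped to ranks 118, 75 and 171 by then. PPP1R17 and MFAP4 thus belong to both windows.

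Onset was taken, per course, as the first time from which the log2 change from that course's own 0 h array was at least 1 at every later time. Of 27 combinations of gene and course, 1 had its onset at 8 h and 13 at 16 h, and a further 8 and 5 at 24 and 48 h. SUSD2 and MFAP4 had it at 16 h in all 3 courses. With a pseudocount of 64, which damps dim signals, MFAP4 had it at 24, 24 and 48 h in courses 1, 2 and 3, and SUSD2 in course 3 at 24 h. STC1, POM121L9P and PPP1R17 had it at 16 h in courses 1 and 2 and at 24 h in course 3. For SLC7A7 it fell at 16 h in course 1 and at 24 h in courses 2 and 3, for FNDC5 at 24, 24 and 48 h in courses 1, 2 and 3, and for C11orf96 at 24, 48 and 48 h. LRRC10B reached it at 48 h in courses 1 and 3, and at 8 h in course 2, where the 0 h signal was 0.9. With a pseudocount of 64 it was 24, 48 and 48 h for SLC7A7, 24 h in course 2 for PPP1R17, and 48 h in every course for FNDC5, LRRC10B and C11orf96. The control course passed the bar only for SLC7A7 and C11orf96, each at 96 h, and for neither with a pseudocount of 64.

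The mid-rise was the time when a course first reached 50% of its own largest log2 change. It came at 16 h in courses 1 and 2 and at 24 h in course 3 for each of SUSD2, STC1 and POM121L9P. MFAP4 and PPP1R17 reached it at 24 h in course 1 and at 48 h in courses 2 and 3. SLC7A7, FNDC5, LRRC10B and C11orf96 reached it at 48 h in all 3 courses. In each course, then, SUSD2, STC1 and POM121L9P reached it before the other 6 genes. The peak fell at 48 h in 11 of the 27 combinations and at 96 h in 16, and it was at 48 h in all courses for SUSD2 and POM121L9P. For STC1 it was at 96 h in course 1 on the probe set shown, but at 48 h in all 3 courses on both further probe sets.

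**Figure D2:**
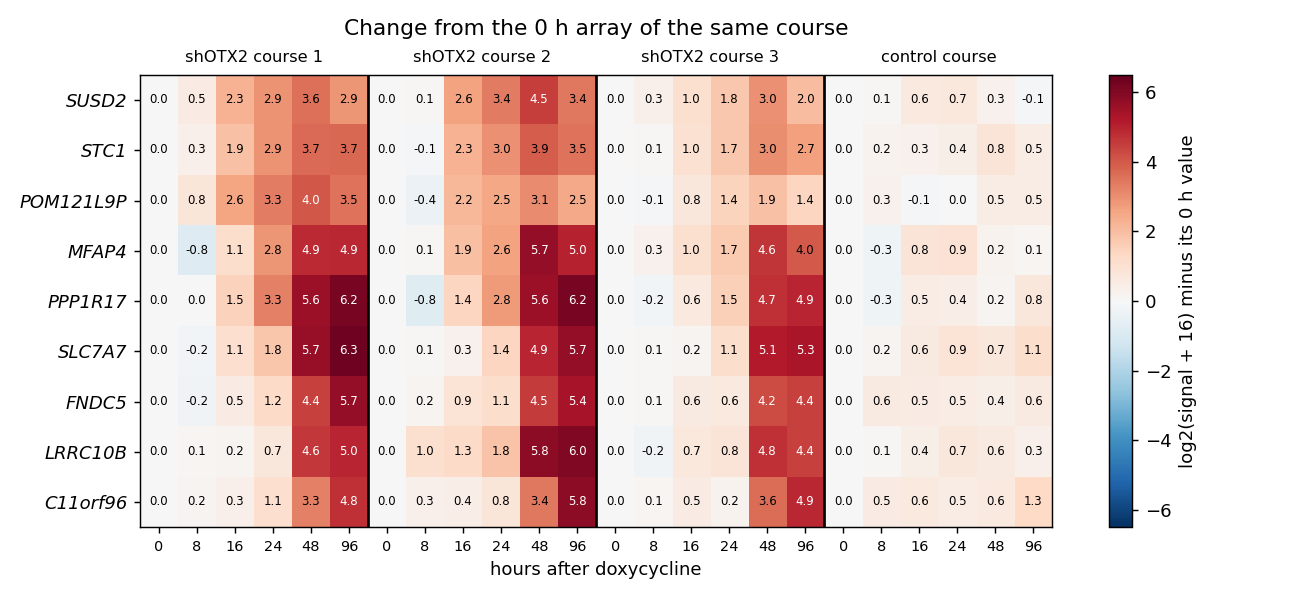
Colour map of the log2 change of each gene (rows) from the 0 h array of the same course, with the value printed in each cell; columns are hours after doxycycline in the 3 shOTX2 courses and, on the right, the control course. SUSD2, STC1, POM121L9P, MFAP4 and PPP1R17 colour from 16 h, less so in course 3. The rows from SLC7A7 down colour mainly from 48 h, and no control cell goes above the 1.3 of C11orf96 at 96 h.

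Levels at 0 h differed between courses that were nominally alike. Course 3 was the brightest shOTX2 course at 0 h for 6 of the 9 genes, where 29.3% of all tested genes had it so. The further STC1 probe sets and the second POM121L9P probe set had it so too. On the second probe sets of SUSD2 and FNDC5 course 1 was brightest, at 51.1 and 48.2 against 50.5 and 44.7 in course 3. On that of PPP1R17 it was course 2, at 6.1 against 1.6. The control array lay above all 3 shOTX2 arrays at 0 h for 5 of the 9, namely SUSD2, FNDC5, MFAP4, PPP1R17 and LRRC10B, against 27.1% of tested genes. On both further STC1 probe sets and on the second POM121L9P probe set it lay above all 3 too. Set against the control array of the same time rather than against 0 h, all 3 shOTX2 arrays were higher for 2 of 9 genes at 16 h (STC1 and POM121L9P), where 27.8% of tested genes met this mark. At 24 h it was 5 of 9 genes, with SUSD2, SLC7A7 and PPP1R17 added, where 28.7% of tested genes met it. At 48 h and at 96 h it was 9 of 9, where 34.2% and 34.9% of tested genes met it. The genes were chosen for a large rise from the shOTX2 0 h arrays to these times. Low shOTX2 signals at 0 h and high ones later are thus part of the choice. The shares over all genes, at 0 h as at later times, are given for scale and nothing is read from them. By this measure MFAP4, which has its onset at 16 h by its own 0 h array (24 to 48 h with a pseudocount of 64), joined only at 48 h. The measure depends on the probe set. At 16 h the second POM121L9P probe set read 120.0 to 152.9 against 151.3 in the control array. At 24 h the second SUSD2 probe set read 122.3 in course 3 against 159.4, and that of PPP1R17 16.8 in course 1 against 22.1. At 48 h the second C11orf96 probe set read 12.5 to 29.7 against 26.0. In bulk RNA, more cells with a transcript and more transcript per cell cannot be told apart.

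The step from 8 h to the mean of 16 and 24 h is given without a test, since the values at 16 and 24 h helped to choose the genes. On the log2 scale SLC7A7 was higher at 16 and 24 h than at 8 h by 1.64, 0.76 and 0.60 in courses 1, 2 and 3, against 0.56 in the control course. FNDC5 differed by 1.11, 0.86 and 0.54 in the 3 courses, against -0.06 in the control course. LRRC10B differed by 0.30, 0.53 and 0.99, against 0.48 in the control course, so its courses lay on both sides of the control. C11orf96 differed by 0.53, 0.26 and 0.26, against 0.05 in the control course. The fitted means were 1.00 (SE 0.187) for SLC7A7, 0.84 (SE 0.188) for FNDC5, 0.61 (SE 0.207) for LRRC10B and 0.35 (SE 0.214) for C11orf96. On the mean of a gene's probe sets the value for FNDC5 was 0.47 and that for C11orf96 turned to -0.12. The same step ran from 1.09 to 2.92 in the 3 courses for SUSD2, STC1, POM121L9P, MFAP4 and PPP1R17, and MFAP4 in course 3, at 1.11, did not exceed the 1.14 of the control course.

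The step from 48 to 96 h is likewise given without a test, since the signal at 96 h helped to decide which genes count as risen late. SUSD2 read 2664, 1509 and 1743 at 96 h in courses 1, 2 and 3, which is 61.9%, 46.7% and 50.9% of its 48 h signal, against 76.2% in the control course. The mean log2 difference was -0.92 (SE 0.453). POM121L9P kept 68.6%, 66.3% and 69.2% of its 48 h signal, against 103% in the control course, a log2 difference of -0.55 (SE 0.460). STC1 kept 103%, 75.5% and 76.3%, against 78.0% in the control course, a difference of -0.25 (SE 0.262). So SUSD2 was lower at 96 h in the control course too, and STC1 in the control course did as in courses 2 and 3.

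By sign alone, SUSD2 and POM121L9P were lower at 96 h than at 48 h in all 3 courses, as were 28.9% of all tested genes and 46.5% of the 480 genes called higher at 24 h. SLC7A7, FNDC5, PPP1R17 and C11orf96 were higher at 96 h in all 3 courses, as were 24.7% of tested genes. On the probe sets shown, the control course was higher at 96 h for the same 4 genes. The ratio of 96 to 48 h for SLC7A7 was 1.12 to 1.72 in shOTX2 courses and 1.38 in the control course, and for PPP1R17 it was 1.15 to 1.54 against 1.49. FNDC5 had ratios of 1.15 to 2.48 in shOTX2 courses and 1.18 in the control course. Only for C11orf96 among these 4 did all shOTX2 courses, at 2.46 to 5.32, exceed the control course, at 1.85, again on the probe sets shown. The second FNDC5 probe set had ratios of 0.95 to 1.54 in shOTX2 courses, with course 3 lower at 96 h, and 0.75 in the control course. That of C11orf96 had 1.07 to 3.88 and 0.58. STC1 and MFAP4 were lower in courses 2 and 3 and 3% higher in course 1, and LRRC10B was lower in course 3 only.

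**Figure D3:**
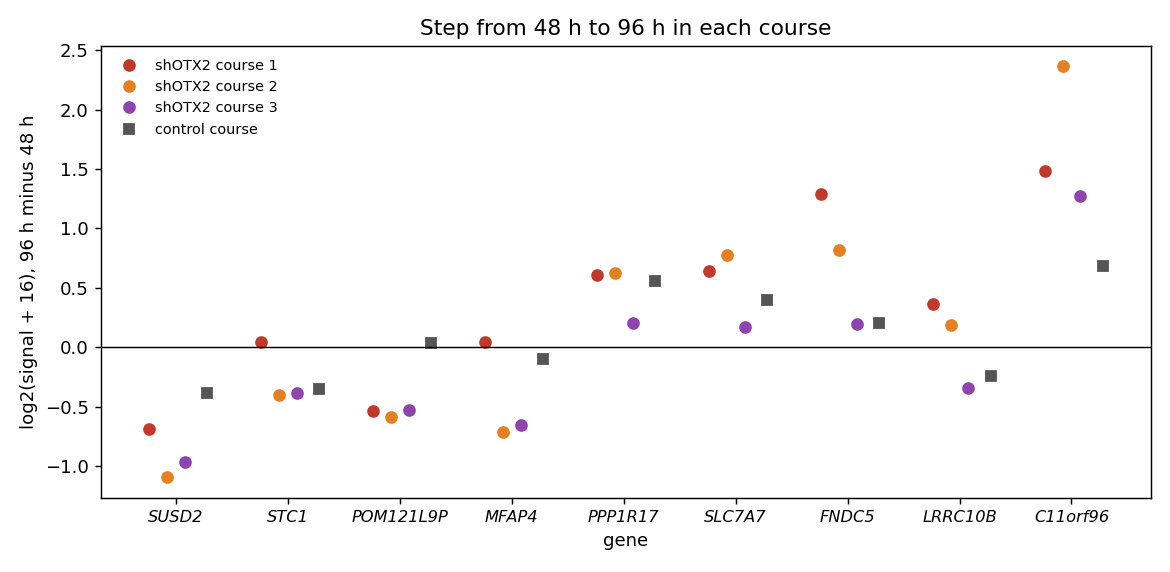
Difference of log2(signal + 16) between 96 and 48 h for the 9 genes in each course; circles are the 3 shOTX2 courses, squares are the control course, and the horizontal line marks no difference. SUSD2 and POM121L9P lie below the line in all 3 shOTX2 courses, and PPP1R17, SLC7A7, FNDC5 and C11orf96 lie above it in all 3 and in the control course.

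The control course, which played no part in choosing the genes, was tested as 48 and 96 h against 0 and 8 h, its arrays being assumed to vary like the shOTX2 groups. All 9 genes differed upward, by 0.07 for SUSD2, 0.18 for FNDC5, 0.29 for MFAP4, 0.35 for POM121L9P, 0.41 for LRRC10B, 0.53 for STC1, 0.62 for PPP1R17, 0.72 for C11orf96 and 0.84 for SLC7A7 on the log2 scale, although leaving out 1 control array turned the sign for SUSD2 (to -0.12) and FNDC5 (to -0.10). None was called by limma, with adjusted p between 0.396 for SLC7A7 and 0.999 for SUSD2, and 0% of all tested genes were. At an unadjusted p under 0.05 there were 2 of the 9, SLC7A7 and C11orf96, and 1108 of all 13903 genes. The same difference in shOTX2 cells, given for size only, was 5.52 for SLC7A7, 4.19 for C11orf96 and 3.06 for SUSD2.

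The other probe sets of a gene bear on whether 1 probe set carries a pattern. The second SUSD2 probe set peaked at 48 h like the first (Pearson r = 0.953 over the 24 arrays) and changed by 3.40 at 48 h and 2.04 at 96 h. Both further STC1 probe sets peaked at 48 h (r = 0.983 and 0.923), the last with a smaller change of 1.81. PPP1R17 had a dimmer second probe set with changes of 3.00 at 48 h and 3.27 at 96 h (r = 0.942). FNDC5 had a second probe set with 1.65 and 1.90 at those times (r = 0.959), but it had -0.19, -0.24 and 0.07 at 8, 16 and 24 h, where the one shown had 0.00, 0.67 and 1.01, so 1 probe set carries the early part. Another FNDC5 probe set stayed at or below 3.7 throughout. C11orf96 was less well borne out: its second probe set never exceeded 48.5 and changed by 0.25 at 48 h and 0.79 at 96 h (r = 0.637). For POM121L9P, a second probe set annotated to it alone changed by 2.64 at 48 h and 2.03 at 96 h (r = 0.886). SLC7A7, MFAP4 and LRRC10B have 1 probe set each.

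Across the 24 arrays the 9 genes correlated with each other at r from 0.61, between C11orf96 and POM121L9P, to 0.984, between SLC7A7 and FNDC5. These values describe arrays that share courses and times and carry no test. The 2 other genes whose signal ran most like each gene were found over the same 24 arrays. For SUSD2 they were USP18 (r = 0.956) and TSPAN18 (0.951), and for STC1 CBLB (0.967) and KIAA1755 (0.962). POM121L9P ran most like PAPSS1 (0.947) and GRK3 (0.934). MFAP4 had PLPP3 (0.969) and CCM2L (0.965) beside it, and PPP1R17 had SPARC (0.976) and PLPP3 (0.974). SLC7A7 was most like GKAP1 (0.992) and SHOX2 (0.984), and FNDC5 like SSTR2 (0.989) and SPARC (0.989). For LRRC10B they were IP6K3 (0.981) and IFI44L (0.98), and for C11orf96 PCDHB15 (0.989) and TSPYL4 (0.987). USP18, a protease that removes ISG15 from proteins, ranked 1 of all genes at 16 and 24 h, with log2 changes of 2.04 and 3.53, and SPARC, a secreted matrix protein, changed by 4.10 at 48 h.

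SUSD2 and POM121L9P lie close together on chromosome 22 in the RefSeq annotation of GRCh38.p14, with GGT5 between them. GGT5, a membrane enzyme that cleaves glutathione conjugates, had signals at or below the array median at 0 h and was called higher at 48 h (log2 change 1.91, limma adjusted p = 0.000228) but not at 24 h (0.87, adjusted p = 0.155) or at 96 h (0.53, adjusted p = 0.226). SPECC1L, a cytoskeletal protein gene on the far side of POM121L9P, rose at all 3 times, by 1.02, 1.28 and 0.63 at 24, 48 and 96 h (adjusted p = 0.00260, 3.28e-05 and 0.00989). GSTT2, a glutathione transferase gene with a near-identical copy next to it, rose by 0.85, 2.18 and 1.98 (adjusted p = 0.0389, 1.35e-06 and 1.97e-06). CABIN1, directly next to SUSD2, and UPB1 beyond SPECC1L were not called at any of these times, CABIN1 with changes of 0.32, 0.30 and 0.18. Over the 35 tested neighbours of all 9 genes, up to 3 on each side, 4 were called higher and 2 lower at 24 h, where 6.14% of tested genes were called in either direction. At 48 h it was 11 higher and 7 lower, where 33.3% were called.

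**Figure D4:**
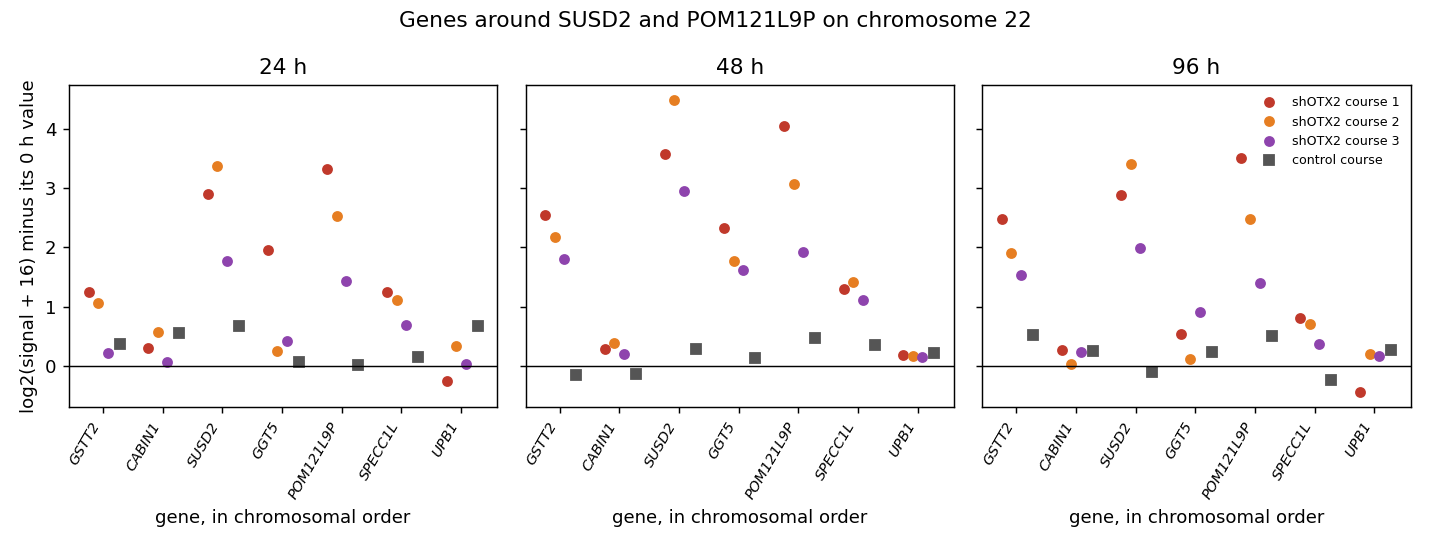
Log2 change from the 0 h array of the same course at 24, 48 and 96 h for tested genes around SUSD2 and POM121L9P, in their order along chromosome 22; circles are the 3 shOTX2 courses and squares the control course. At 48 h GSTT2, SUSD2, GGT5, POM121L9P and SPECC1L lie above the control course in all 3 shOTX2 courses. CABIN1 does too, with small changes of 0.21 to 0.392 against -0.133. UPB1, at 0.144 to 0.185, lies below its control course at 0.215.

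The promoters of 4 of the 9 genes, PPP1R17, SLC7A7, LRRC10B and FNDC5, were in the RefSeq promoter table of GRCh38.p14. They are given because the table had no entry for the other genes. All 4 climbed between 24 and 48 h, by 2.76 for PPP1R17, 3.80 for SLC7A7, 3.93 for LRRC10B and 3.40 for FNDC5 (log2). MFAP4 and C11orf96, without an entry, climbed by 2.68 and 2.74. Below are the 250 bases before the start of 3 of them, 5′ to 3′, in lower case with each CG dinucleotide in capitals.
PPP1R17, chr7:31686965-31687214, plus strand: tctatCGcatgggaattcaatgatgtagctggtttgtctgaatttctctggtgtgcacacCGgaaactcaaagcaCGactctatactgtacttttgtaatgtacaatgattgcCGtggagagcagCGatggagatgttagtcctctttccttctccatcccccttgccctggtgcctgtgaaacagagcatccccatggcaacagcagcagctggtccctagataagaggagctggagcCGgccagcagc
SLC7A7, chr14:22819792-22820041, minus strand: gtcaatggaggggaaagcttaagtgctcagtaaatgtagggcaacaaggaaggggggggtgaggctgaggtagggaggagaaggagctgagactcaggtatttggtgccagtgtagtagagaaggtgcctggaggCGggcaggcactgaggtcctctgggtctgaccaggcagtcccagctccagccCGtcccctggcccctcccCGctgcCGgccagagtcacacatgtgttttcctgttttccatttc
LRRC10B, chr11:61508499-61508748, plus strand: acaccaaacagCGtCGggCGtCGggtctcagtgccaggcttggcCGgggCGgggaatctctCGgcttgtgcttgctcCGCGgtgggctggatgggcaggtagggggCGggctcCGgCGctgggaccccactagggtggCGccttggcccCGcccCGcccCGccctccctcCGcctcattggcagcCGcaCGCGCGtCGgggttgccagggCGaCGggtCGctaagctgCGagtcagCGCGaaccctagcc
The stretch of PPP1R17 holds 6 CG dinucleotides and 50.8% G and C, and that of SLC7A7 holds 4 and 58.8%. LRRC10B has 28 and 73.2%, and FNDC5, whose window lies within the annotated span of the gene and is not printed, has 37 and 80.8%. The medians over 27305 promoters of this length were 11 CG dinucleotides and 58.0%. So among these 4 genes the letters differ widely: 2 of the 4 promoters are poor in CG and 2 are rich. The motif TAATCC, the core letters bound by OTX2 and related homeodomain proteins, was searched on both strands and was in none of the 4, where 5.67% of all promoters of this length hold it. No promoter is shown for SUSD2, STC1, MFAP4, C11orf96 and POM121L9P.

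Genes related to each of the 9 were read from lists, as counts called by limma beside the share of all tested genes called, which was 6.14% at 24 h (3.45% higher and 2.68% lower) and 43.6% at 96 h (21.1% higher and 22.5% lower). Of 11 tested cationic and heteromeric amino acid transporters other than SLC7A7, 5 fell at 96 h and 0 rose, with a median log2 change of -0.28 against 0.00 for all genes. SLC7A2, a cationic amino acid transporter, averaged 148 ± 52.1 at 96 h and 975 ± 99.7 at 0 h (SD, n = 3 each; log2 change -2.65, adjusted p = 7.24e-08), while the control arrays read 1393 and 890 at those times. SLC7A11, the cystine and glutamate exchanger, fell by 2.43, and SLC7A5, the large neutral amino acid transporter, fell by 2.02 (adjusted p = 0.00301 and 1.16e-05). At 24 h SLC7A2 alone was lower, by a log2 change of -1.30 (adjusted p = 0.00278), a call that was lost without course 2 (adjusted p = 0.165). With the course as a block, 2 of these transporters were lower at 24 h.

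Among the relatives of SUSD2 and MFAP4, the counts at 96 h lay near the share over all genes. Among 11 tested sushi domain surface proteins, 3 rose and 1 fell at 96 h (5 and 2 with the course as a block). With each array centred on its median, 3 rose and 2 fell. SUSD6 averaged 471 ± 57.4 at 96 h against 127 ± 7.54 at 0 h (log2 change 1.76, adjusted p = 2.91e-07), and SEZ6L, a neuronal membrane protein, rose by 1.42 (adjusted p = 2.13e-05). Of 17 elastic fibre and microfibril genes, 4 rose and 3 fell at 96 h. LOXL4, a secreted lysyl oxidase that crosslinks matrix, averaged 361 ± 74.3 at 96 h against 47.5 ± 14.0 at 0 h (log2 change 2.57, adjusted p = 4.43e-08). LTBP1, which holds latent TGF-beta in the matrix, fell by 1.71 (adjusted p = 8.21e-06) and MFAP3L, a membrane protein, fell by 1.27 (adjusted p = 0.000148). With each array centred on its median, 2 of the 17 rose and 4 fell.

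Among 14 tested genes for secreted peptide hormones, the kind of product STC1 makes, 3 rose and 1 fell at 96 h. CHGB and CHGA, granins of dense-core secretory granules, rose by 2.85 and 1.63 (adjusted p = 2.42e-08 and 0.000574), with CHGB at 165 ± 29.6 at 96 h and 9.17 ± 4.72 at 0 h (SD, n = 3 each). The control arrays for CHGB read 22.8 and 20.1 at those times. Of the 4 tested genes of the FNDC family other than FNDC5, FNDC3A rose by 0.78 (adjusted p = 7.07e-06) and FNDC3B had a change of -0.46 (adjusted p = 0.00104), which was not called on the mean of its probe sets (adjusted p = 0.0898).

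Phosphatase inhibitors other than PPP1R17 showed no common direction, with 3 of 14 higher and 4 lower at 96 h. With the course as a block it was 3 higher and 6 lower. PPP1R14A, an inhibitor of myosin phosphatase, rose by 1.78 (adjusted p = 0.000137), and CIP2A, an inhibitor of PP2A in tumour cells, fell by 1.69 (adjusted p = 7.52e-08). Of 10 tested Purkinje cell genes, 4 rose and 4 fell. HOMER3, a postsynaptic scaffold, averaged 899 ± 300.3 at 96 h and 46.6 ± 7.35 at 0 h (SD, n = 3 each; log2 change 3.83, adjusted p = 5.27e-09), FOXP2 rose by 2.99 (adjusted p = 4.70e-08), and PCP4 fell by 1.77 (adjusted p = 0.000215). Of 17 neuronal leucine-rich repeat genes, 4 rose and 2 fell, with LRRN1 up by 1.87 and SLITRK5 down with a change of -2.22 (adjusted p = 1.14e-07 and 3.49e-06). With the course as a block 5 of them rose and 3 fell. Among 6 tested relatives of POM121L9P, 2 rose and 1 fell. With each array centred on its median, 1 rose and 1 fell. The limma call lost there was POM121, with an adjusted p of 0.0467 before and 0.122 after. POM121L8P, a pseudogene of the same family, averaged 47.5 ± 9.06 at 96 h and 13.7 ± 3.42 at 0 h (log2 change 1.09, adjusted p = 0.000568), a signal near that of the array median.

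Markers of other cell types were measured beside these genes because SUSD2 and MFAP4 are also known from mesenchymal cells. Of 9 tested mesenchymal and fibroblast markers, 5 rose and 0 fell at 96 h, and none was called at 24 h. With the course as a block 1 rose at 24 h. The summed signal of the 10 on the array was 668 to 1244 in shOTX2 arrays at 96 h and 904 to 1182 at 48 h, against 254.5 and 463 in the control arrays. At 24 h it was 221 to 261 in shOTX2 arrays and 299 in the control array, a time at which SUSD2 was at 1889 ± 692 in shOTX2 arrays (SD, n = 3). COL1A1 averaged 542 ± 239 at 96 h and 39.1 ± 14.8 at 0 h (SD, n = 3 each; log2 change 3.29, adjusted p = 5.44e-08). It was thus the largest part of the summed signal at 96 h. ACTA2, TAGLN and THY1 averaged 37.6, 27.2 and 14.0 at 96 h, against 32.0, 25.3 and 19.1 at 0 h. COL3A1 and PDGFRB rose by 2.04 and 1.51 (adjusted p = 7.73e-05 and 2.73e-05), while DCN and LUM, defining fibroblast genes, never exceeded 30.5 and 16.9. The immune and endothelial markers, 8 on the array, summed to 68.8 to 84.4 in shOTX2 arrays at 96 h and 78.6 in the control array, and PTPRC and CD14 stayed at or below 16.7 and 2.4. Of 3 tested astrocyte markers, 1 rose and 1 fell. The part of other cells in the rise of SUSD2 and MFAP4 was not tested.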

How the data were processed

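RNA of 24 D425 arrays was profiled, 18 labelled shOTX2 in 3 courses and 6 of 1 control course, with groups, times and course numbers taken from the labels. The authors deposited 1 linear signal intensity per probe set, made with MAS5 and GCOS per the submitters' processing notes (no version is given in the sources used here). Trimmed by 2% at each end, array means ran from 100.011 to 100.014, so arrays were scaled as a whole and a change common to most genes is hidden. Detection calls were not used.

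Names came from the platform annotation, which lists 42898 of 54675 probe sets, 41097 with 1 symbol and 1801 with several, and symbols were updated through the RefSeq gene table of GRCh38.p14. The filter on low signal passed probe sets above the median of the array in 3 or more arrays, which left 33803, and for each of 13903 genes the one with the highest mean log2 value was used. Signals were taken as log2(signal + 16) and fitted with limma 3.58.1 in R 4.3.3 on the 12 group means of all 24 arrays (lmFit, eBayes with a trend, 12 residual degrees of freedom), with Benjamini-Hochberg adjustment over all genes and calls under 0.05. Since control groups have 1 array, their spread is taken from the shOTX2 groups. The fitting code was tested on simulated data. Other work used Python 3.11.15.

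The 9 genes, the gene lists, the rules and the tests were chosen with earlier results of these data known. All 9 genes are named, with all their probe sets, and from each list up to 3 called genes at 96 h and 2 at 24 h by size of change. For each gene the 2 genes of highest correlation and up to 3 neighbours on each side were also taken. Tests of 16 and 24 h against 8 h, 48 h against 24 h and 96 h against 48 h had been planned for some of the 9 genes, but values at those times took part in choosing the genes or in sorting them, so these steps are given without a p-value. The 9 genes were tested only in the control course.

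The course number pairs arrays, as the labels call the courses independent: after removing group means, values correlated between same-course arrays in all 45 pairs of times (r 0.154 to 0.553, median 0.242). For the gene lists, the fit with the course as a block is given beside a count that it changes. It is not given for the neighbours. The labels name separate courses and do not say more about how cells were kept apart, so p-values measure the spread between these courses.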

Additional observations from a re-analysis of the deposited data

Results flagged for a closer look

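Some steps ran upward in every shOTX2 course and downward in the single control array series, or the reverse. The share of all tested genes with such steps was not counted, so nothing is read from how many genes had them. Each value is the mean shOTX2 log2 change minus the control log2 change. From 24 to 48 h it was 1.38 for SUSD2, 3.95 for SLC7A7, 3.50 for FNDC5, 3.39 for MFAP4, 2.97 for PPP1R17 and 4.10 for LRRC10B. The control changes themselves were small for SLC7A7, FNDC5, PPP1R17 and LRRC10B, from -0.22 to -0.10, and larger for SUSD2 (-0.39) and MFAP4 (-0.71), whose control signals had been higher at 24 h. From 48 to 96 h the value was -0.58 for POM121L9P, where the control change was 0.04. From 0 to 96 h it was 2.85 for SUSD2, with a control change of -0.10. With 1 control array per time, the difference was not tested for any of them. For SLC7A7, FNDC5, MFAP4, PPP1R17 and LRRC10B the step from 24 to 48 h is part of the rise on which they were chosen.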

How the results depend on the processing

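The changes of the 9 genes in the control course were called under none of the alternatives. Of the untested changes, 530 moved by less than the spread between courses and 37 by more. Of the 37, 21 came with a pseudocount of 64, 15 with the mean of all probe sets of a gene and 1 with median centring. Under these 3 alternatives 42, 48 and 62 moved by less. The other alternatives could not move a value that far. Dropping the filter, adding the course as a block or fitting only the groups compared left each estimate as it was. Leaving out 1 of 3 courses shifts a mean by less than that spread. Leaving out the 8 h against 0 h change, 3 of 486 turned their sign. The onset moved in 12 of 27 combinations with a pseudocount of 64, in 9 with a threshold of 1.5-fold and in 0 with median centring. Counts of called genes were less steady. With the course as a replicate block they were 2128 at 24 h (853 without), 1779 for 16 and 24 h against 8 h (622), 4195 for 48 h against 24 h (2454), 3359 for 96 h against 48 h (1635) and 88 in the control course (0), and the block changed no call of the 9 genes. With only the groups compared, 360 genes were called at 24 h and 390 for 16 and 24 h against 8 h; the control contrast could not be fitted so. Leaving out 1 shOTX2 course gave 87 to 778 genes at 24 h, 4197 to 6155 at 96 h, 56 to 811 for 16 and 24 h against 8 h, 913 to 2880 for 48 h against 24 h, 111 to 1488 for 96 h against 48 h and 0 to 6 in the control course. Without course 2 the counts were 87, 56, 913 and 111 at 24 h, for 16 and 24 h against 8 h, for 48 h against 24 h and for 96 h against 48 h, and the cause was not tested. In the control course a pseudocount of 64 called 1 gene and leaving out 1 control array 0 to 19, the last chosen after seeing the data. Median centring moved the median of all genes to -0.15 at 96 h and the share of higher calls to 35.8%, against 48.4% (2243 higher and 4020 lower), and for 48 h against 24 h to 30.65%, against 46.9%. Signals near the array median, as of MFAP4 and LRRC10B at 0 and 8 h, limit every ratio to those times.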

Other observations

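Neighbours of the other genes gave these values in shOTX2 cells. ADAM28, next to STC1 in annotation order among the genes measured, averaged 44.3 at 96 h and 662 at 0 h, a log2 change of -3.49 (limma adjusted p = 6.05e-12), opposite to STC1. OXA1L, directly beside SLC7A7, a protein that inserts subunits into the inner mitochondrial membrane, averaged 1989 at 96 h and 565 at 0 h (log2 change 1.79, adjusted p = 4.08e-10). ABHD4, further along the same side of SLC7A7, rose by 2.03 (adjusted p = 4.53e-07), and LRP10 on the other side by 1.22 (adjusted p = 0.00959). HPCA, a neuronal calcium sensor next to FNDC5, rose by 2.37 at 96 h (adjusted p = 0.000195), and MAPK7, next to MFAP4, by 1.69 (adjusted p = 1.71e-06). Other neighbours of FNDC5 fell: YARS1, NHSL3 and TMEM54 changed by -0.63, -1.07 and -0.91 (adjusted p = 0.000272, 0.0128 and 0.0458). So did SLC25A37 near STC1 and LSM5 near PPP1R17, with changes of -1.11 and -0.865 (adjusted p = 1.14e-06 and 1.81e-05). Over all 35 tested neighbours 11 were called higher and 9 lower at 96 h, where 43.6% of all tested genes were called.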
